A study of Mus musculus with 2 samples.

Results

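Prostaglandins are lipid signals made from arachidonic acid, and the genes described here are 10 mouse genes that make them, take them up, break them down or receive them. They are Ptgs1, Ptgs2, Ptgds, Ptges, Ptgis, Hpgd, Slco2a1, Ptger1, Ptger3 and Ptger4, and each had 1 row among the 31053 genes of both count matrices. The genes were chosen by symbol with earlier results of these libraries in view, among them a higher Ptgds in proximal tubule cells and a lower Hpgd in macrophages of the PT I-PpoI library, so these 2 contrasts are descriptions and support nothing. In the kidney, cyclooxygenases turn arachidonic acid into prostaglandin H2, terminal synthases convert that product into the separate prostaglandins, and each acts on nearby cells through its own receptors. Prostaglandin E2 made in the collecting duct, the interstitium and the macula densa is known for its part in salt and water handling, renin release and blood flow, and its action ends when a carrier takes it into cells where a dehydrogenase oxidises it.

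Single cells were counted from digested cortex of kidneys taken at 16 weeks of age. There were 2 libraries, 1 labelled PT I-PpoI and 1 labelled wild type. I-PpoI is a homing endonuclease that cuts DNA at a few sites of the genome, and the series title places it in proximal tubular epithelial cells. The promoter that restricts it, the number of animals pooled, strain and sex are not given in the sources used here. Libraries held 93257620 and 107977310 unique molecular identifiers (UMIs, each 1 captured RNA molecule), and paired values put the PT I-PpoI library before the wild-type library throughout. After filtering, 5120 and 11963 cells remained with medians of 11105 and 2688 UMIs, and 22 of their barcodes occurred in both libraries. Cells were clustered and the clusters sorted into classes by marker genes, so that a PT-like cell is one of a cluster with proximal tubule markers, and 13 classes had 50 or more cells in both libraries. PT-like cells numbered 167 and 5898, and each of the 16 proximal tubule markers was read in that class in both libraries. A class of 137 and 421 cells led by Gzma and Xcl1 held markers of natural killer and T cells, at a summed 1239.9 and 1369.5 CPM for 7 natural killer markers and 4909.9 and 4093 CPM for 8 T cell markers, all read in each library, and is called by its leading gene. Levels are CPM: the counts of a gene in a class, scaled to 1000000 UMIs of that class and library. They count 3′ ends and are not compared between genes. With 1 library per group there is no test between groups, and the 95% intervals printed cover counting error only, not differences between animals.

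Across the 13 classes the 10 genes gave 130 pairs of gene and class, of which 67 had 20 or more UMIs over both libraries. Among these 67, 16 pairs were higher in PT I-PpoI by 2-fold or more and 4 were lower by 2-fold or more. Over all genes measured the same way, 4.76% of 127542 pairs were higher and 3.68% were lower. Of the 16 higher pairs, 9 stayed under 20 CPM in the higher library. The 11 pairs with at least 20 CPM in the higher library were 7 higher and 4 lower, and Ptgds in PT-like cells and Hpgd in dendritic-like cells stood furthest from 0. Median ratios of the members with 20 or more UMIs ranged from -0.32 in distal convoluted tubule (DCT)-like cells to 1.47 in endothelial-like cells on the log2 scale. The medians of all genes with 20 or more UMIs were -0.01 and 0.20 in the same classes, and 0.30 in PT-like cells. The plot of levels shows that most genes were high in a few classes, mostly the same in both libraries. Some of these classes were common to several genes, and Ptger4 was spread more widely.

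**Figure D1:**
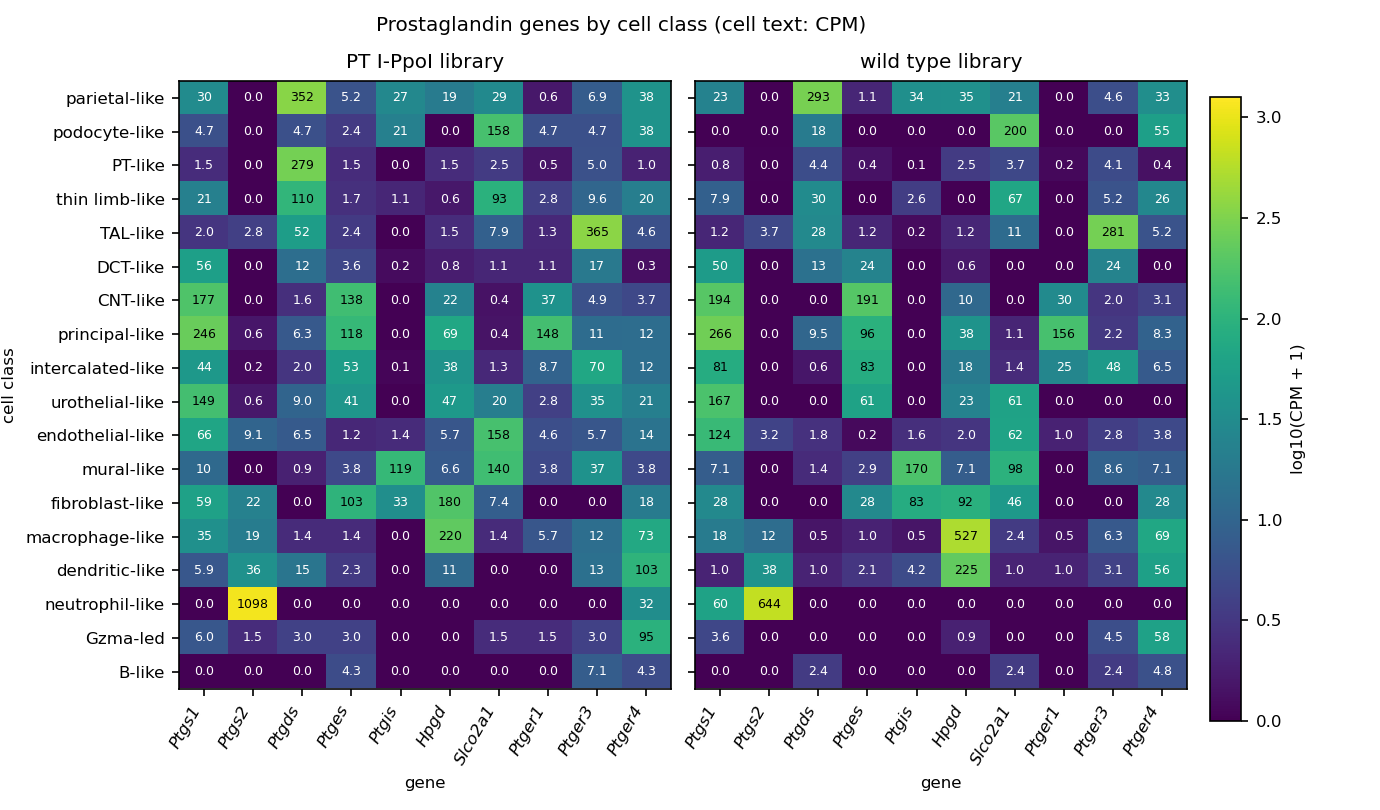
Level of each of the 10 genes (columns) in 18 cell classes (rows) of each library, printed in CPM and coloured by log10(CPM + 1). Ptger3 is brightest in thick ascending limb (TAL)-like cells of both libraries (365 and 281 CPM), whereas PT-like cells are bright for Ptgds on the PT I-PpoI side only (279 and 4.42 CPM).

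Ptgs1 (ENSMUSG00000047250, mm10 chr2:36230426-36252272, plus strand) encodes cyclooxygenase 1, the constitutive form of the enzyme. It was highest in principal-like cells, at 246 CPM (236 to 257) and 266 CPM (243 to 291), and the next classes were connecting tubule (CNT)-like cells at 177 and 194 CPM and urothelial-like cells at 149 and 167 CPM (77 and 17 cells). These intervals overlap between libraries in each of the 3 classes. After each cell was thinned to 2000 UMIs, 40.6% and 40.5% of principal-like cells had a Ptgs1 UMI (92.2% and 76.3% unthinned), against 0.769% and 0.647% of Gzma-led cells. DCT-like cells stood at 55.6 and 49.9 CPM and Gzma-led cells at 6.02 and 3.62 CPM. Intercalated-like cells were lower in PT I-PpoI, at 44.3 and 80.9 CPM (log2 -0.87, -1.09 to -0.65). When the cells were clustered at a finer resolution, which matches the class closely but not cell for cell, Ptgs1 lay almost wholly in a cluster led by Hmx2, at 102 and 135 CPM. In the clusters led by Slc26a4, the pendrin gene of type B cells, and Slc4a1, the anion exchanger of type A cells, it read 1.63 and 12.1 CPM and 5.33 and 9.49 CPM. The Hmx2-led cluster also carried principal cell markers at a summed 6205 and 8876 CPM, with 8 of 8 read in each library, against 341 and 284 CPM in the Slc26a4-led cluster. Its CNT markers summed to 19108 and 22402 CPM (7 of 7 read in each library), against 11866 and 14778.5 CPM in the Slc26a4-led cluster. The Hmx2-led cluster was also the deepest, with a median of 32327 UMIs per cell against 15448 and 15653 in the others. The part of these markers and of undetected doublets in its Ptgs1 was not tested.

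Endothelial-like cells held Ptgs1 at 65.8 and 124 CPM (log2 -0.91, -1.09 to -0.73), but the 4 clusters of this class differed far more than the libraries did. The cluster led by Calca and Mest had 26.6 and 25.4 CPM, the cluster led by Btnl9 had 135 and 148 CPM, and the cluster led by Sema3d and Slco1a4 had 226 and 198 CPM. In the smallest, led by Cytl1 and Stmn2 (56 and 30 cells), there were 9 and 5 UMIs. The log2 ratios of the 3 larger clusters were 0.05, -0.14 and 0.19, nearer to 0 than that of the whole class. The Calca-led cluster supplied 241 of 763 and 254 of 1935 endothelial-like cells, and the Btnl9-led cluster 385 and 1417. Thin limb-like cells were higher in PT I-PpoI, with 38 and 6 UMIs (21.5 and 7.87 CPM, log2 1.35, 0.20 to 2.98), and 8 of the 38 UMIs lay in 1 cell. PT-like cells held 3 and 27 UMIs, at 1.49 CPM (0.306 to 4.34) and 0.812 CPM (0.535 to 1.18). Free RNA was reckoned at up to 1.53 and 0.512 CPM, so the PT I-PpoI value was at its level and the wild-type value above it.

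Ptgs2 (ENSMUSG00000032487, chr1:150100031-150108227, plus strand) encodes the inducible cyclooxygenase 2. Its level was by far the highest in neutrophil-like cells, at 1098 CPM (897 to 1330.1) and 644 CPM (441 to 909), in 30 of 41 and 14 of 23 cells. Dendritic-like cells had 36.3 and 38.4 CPM and macrophage-like cells 19.3 and 11.7 CPM. In the tubule it was read in few cells: 16 of 1423 and 4 of 952 TAL-like cells had a UMI. Those cells were nearly all marked by Nos1 or Pappa2, genes of the macula densa, the salt sensor at the end of the thick ascending limb. Of TAL-like cells with a Nos1 or Pappa2 UMI, 15 of 35 (42.9%, 26.3 to 60.6) of the PT I-PpoI library and 4 of 10 (40%, 12.2 to 73.8) of the wild-type library had Ptgs2. Of the other TAL-like cells, 1 of 1388 and 0 of 942 did, the second allowing, at 3 counts of the total, a share of up to 0.318%. Ptges, a prostaglandin E2 synthase, was read in 12 of 35 (34.3%, 19.1 to 52.2) marked cells and in 18 of 1388 others (1.3%). In wild type it was read in 2 of 10 and 2 of 942. The marked cells were also deeper, with medians of 19424 against 12462 UMIs in PT I-PpoI. Endothelial-like cells had 59 and 16 Ptgs2 UMIs (log2 1.48), of which 54 and 14 fell in the Calca-led cluster, where the levels were 15.6 and 13.7 CPM (log2 0.16, -0.68 to 1.16).

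Ptges (ENSMUSG00000050737, chr2:30889471-30929863, minus strand) encodes the microsomal synthase that makes prostaglandin E2 from prostaglandin H2. It followed the collecting system, at 138 and 191 CPM in CNT-like cells, 118 and 95.7 CPM in principal-like cells and 52.8 and 82.9 CPM in intercalated-like cells. Intervals of the first class ran from 124 to 154 and from 165 to 221 CPM. In intercalated-like cells it was highest in the Hmx2-led cluster, as Ptgs1 was, with 100.3 and 134 CPM in the Hmx2-led cluster, 26.6 and 18.1 CPM in the Slc26a4-led cluster and 3.2 and 7.60 CPM in the Slc4a1-led cluster. Fibroblast-like cells, 33 and 21 in number, had 28 and 3 UMIs (103 and 27.6 CPM), and urothelial-like cells had 41.1 and 60.65 CPM. DCT-like cells were lower in PT I-PpoI for this gene, at 3.63 and 23.7 CPM (32 and 37 UMIs, log2 -2.70, -3.44 to -1.98). The same class held CNT markers at a summed 9653 and 18297 CPM, with 7 of 7 read in each library, and their part in the Ptges difference was not tested. Thin limb-like cells had 3 and 0 UMIs.

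Across the 26 profiles of 13 classes in 2 libraries, Ptges, Ptgs1 and Ptger1 resembled one another. Pearson's r of log2(CPM + 1) was 0.83 for Ptger1 with Ptges, 0.74 for Ptger1 with Ptgs1 and 0.70 for Ptges with Ptgs1, against 0.29 for Ptges with Hpgd. The profiles share libraries and depth, so these values only describe likeness. RefSeq upstream sequences were held for 8 of the 10 genes, Ptgis and Ptger1 being the other two. Shown are the 250 bases before the RefSeq start (GRCm38.p6, 5′ to 3′ on the gene's strand) of Ptgs1 (chr2:36230176-36230425, plus) and Ptges (chr2:30903298-30903547, minus), the pair that shares the collecting system, and of Hpgd (chr8:56294302-56294551, plus). Hpgd was highest in other classes but was also read in the collecting system, at 69.3 and 38.4 CPM in principal-like cells. None of these windows overlapped a GENCODE M21 exon. Capitals mark matches, on either strand, to any of 5 motifs, which were the TATA box (TATAAA), the E-box (CACGTG), the GC box (GGGCGG), the AP-1 motif (TGANTCA) and the core of the cyclic AMP response motif (TGACG).
Ptgs1: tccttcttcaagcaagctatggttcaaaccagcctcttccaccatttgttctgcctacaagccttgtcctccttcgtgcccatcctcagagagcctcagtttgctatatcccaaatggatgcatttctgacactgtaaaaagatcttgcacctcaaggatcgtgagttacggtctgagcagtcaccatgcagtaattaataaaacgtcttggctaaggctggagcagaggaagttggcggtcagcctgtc
Ptges: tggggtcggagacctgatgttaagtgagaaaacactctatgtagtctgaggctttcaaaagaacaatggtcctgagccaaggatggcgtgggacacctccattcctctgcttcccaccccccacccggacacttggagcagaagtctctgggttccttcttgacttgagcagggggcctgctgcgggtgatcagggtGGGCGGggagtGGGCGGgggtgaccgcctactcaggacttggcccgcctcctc
Hpgd: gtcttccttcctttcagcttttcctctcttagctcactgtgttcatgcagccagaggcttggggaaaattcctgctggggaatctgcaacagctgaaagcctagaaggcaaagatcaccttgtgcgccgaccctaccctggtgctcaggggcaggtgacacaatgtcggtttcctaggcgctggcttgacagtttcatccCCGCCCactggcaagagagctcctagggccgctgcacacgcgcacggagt
The Ptgs1 window held 0 matches, with 48.0% G and C. In the Ptges window the GC box matched with first bases 53 and 42 bases before the start. In the Hpgd window it matched once, on the opposite strand, 50 bases before the start. No match overlapped another motif. Of 32851 RefSeq windows of this length, 32.7% held the GC box, 17.8% the cyclic AMP core, 12.4% the TATA box, 6.75% the AP-1 motif and 6.02% the E-box. The GC box was in 6 of the 8 windows. A match describes letters and is no evidence of binding.

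Ptgds (ENSMUSG00000015090, chr2:25466709-25470046, minus strand) encodes the lipocalin-type prostaglandin D synthase. Its highest level in wild type was in parietal-like cells, named by markers of the epithelium that lines Bowman's capsule. They had 293 CPM (258 to 331), against 352 CPM (325 to 382) in PT I-PpoI. The 5 richest cells held 49.1% and 47.5% of these UMIs, and the levels without them were 179 and 154 CPM. Parietal markers summed in this class to 2205 and 1910 CPM (9 of 10 read in each library). Thin limb markers summed there to 2272 and 1729 CPM (6 of 9 read in each library). Proximal tubule markers summed to 1815 and 3352 CPM (14 and 16 of 16 read), so the name of the class is tentative. In the thick ascending limb Ptgds was uneven. The cluster led by Kcnt1 and Nccrp1 had 139.9 CPM (129.8 to 150.5) and 87.1 CPM (68.5 to 109), and the cluster with Egf, Cldn16 and Umod had 17.6 and 5.05 CPM (234 and 13 UMIs, log2 1.75, 1.00 to 2.73). The third cluster, led by Eprn and Cldn19 and shallow, had 18 and 31 UMIs (61.2 and 37.3 CPM). The class as a whole had 51.8 and 27.9 CPM (log2 0.89, 0.62 to 1.18). Thin limb-like cells had 109.7 and 30.2 CPM (194 and 23 UMIs, log2 1.84, 1.24 to 2.55), in 29 of 77 and 10 of 67 cells, with 46 UMIs in the richest cell. DCT-like cells did not stand apart, at 12.3 and 13.4 CPM. Endothelial-like cells read 42 and 9 UMIs with 17 in 1 cell, and intercalated-like cells 19 and 2, where free RNA alone was reckoned at 2.02 and 0.629 CPM against 1.99 and 0.562 CPM measured. Principal-like cells had 6.29 and 9.46 CPM.

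In PT-like cells Ptgds stood at 279 CPM (257 to 303) and 4.42 CPM (3.74 to 5.20), a log2 ratio of 5.98 (5.72 to 6.25), and this pair was among the results the gene set was chosen by. In that class 13.7% of 12034 genes were higher and 4.76% were lower by 2-fold or more. The level came from few cells. Of the 564 UMIs in PT I-PpoI, the 5 richest of 167 cells held 438 (77.7%) and 1 cell held 173. In wild type 147 UMIs lay in 82 of 5898 cells, with 14 in the richest. Without the UMIs of the 5 richest cells, the levels were 62.4 and 3.22 CPM. Most wild-type PT-like cells lay in clusters with hardly any PT I-PpoI cell, so the contrast was also read inside 1 cluster, cluster 9, which holds early-segment transporter genes such as Slc5a12 and Slc5a2 among its leading genes and had 99 and 731 cells. There Ptgds had 242 and 10.4 CPM (log2 4.53, 4.18 to 4.92), or 41.9 and 5.26 CPM without the UMIs of the 5 richest cells. A Ptgds UMI was found in 25 of 99 (25.3%, 17.1 to 35) and 34 of 731 cells (4.65%, 3.24 to 6.44). After thinning to 2000 UMIs the shares were 11.5% (5.86 to 19.6) and 1.81% (0.965 to 3.07), against 1.54% and 0% of Gzma-led cells (unthinned 0 of 421 of wild type, which allows up to 0.713%, at median depths 4197 and 2371 UMIs, and 12394 and 9333 in cluster 9). The second cluster with 30 or more cells of both libraries, cluster 25, had 604 and 13.5 CPM in 38 and 956 cells, where 5 cells held 248 of 262 UMIs in PT I-PpoI and the levels without the 5 richest were 32.3 and 7.78 CPM.

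Markers of the classes richest in Ptgds were read in these cells too. In cluster 9 the summed level of the 10 parietal markers was 244 and 146 CPM (7 and 9 of 10 read), and that of the 9 thick ascending limb markers 574 and 306 CPM (9 of 9 read in each library). Within the PT I-PpoI part of cluster 9, the 5 cells with 10 or more Ptgds UMIs had parietal markers at 167 CPM and thick ascending limb markers at 579 CPM. The 74 cells with 0 Ptgds UMIs had 236 and 614 CPM. Over all 25 cells with a Ptgds UMI the sums were 259.6 and 496 CPM, with parietal markers above and thick ascending limb markers below the cells with 0. Over all PT-like cells of PT I-PpoI, the 40 with a Ptgds UMI had 287 and 678 CPM. The 127 with 0 had 214 and 613 CPM, and the 9 with 10 or more had 210 and 488 CPM. In wild type the 82 PT-like cells with a Ptgds UMI had 139 and 1556 CPM, against 124 and 570 CPM in the 5816 with 0. Thin limb markers of PT-like cells summed in PT I-PpoI to 80 CPM in the 40, 133 CPM in the 127 and 62.4 CPM in the 9. In wild type they summed to 721 CPM in the 82 and 243 CPM in the 5816. The part of other cells' RNA in the contrast was not tested beyond these values. Proximal tubule markers stood at 15217 CPM in the 5 cells, 13424 CPM in the 25 and 14515 CPM in the 74 of cluster 9. Free RNA was reckoned to supply at most 1.77 and 0.389 CPM of Ptgds in PT-like cells. The plot of UMIs per cell shows the long tail of Ptgds in PT I-PpoI.

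**Figure D2:**
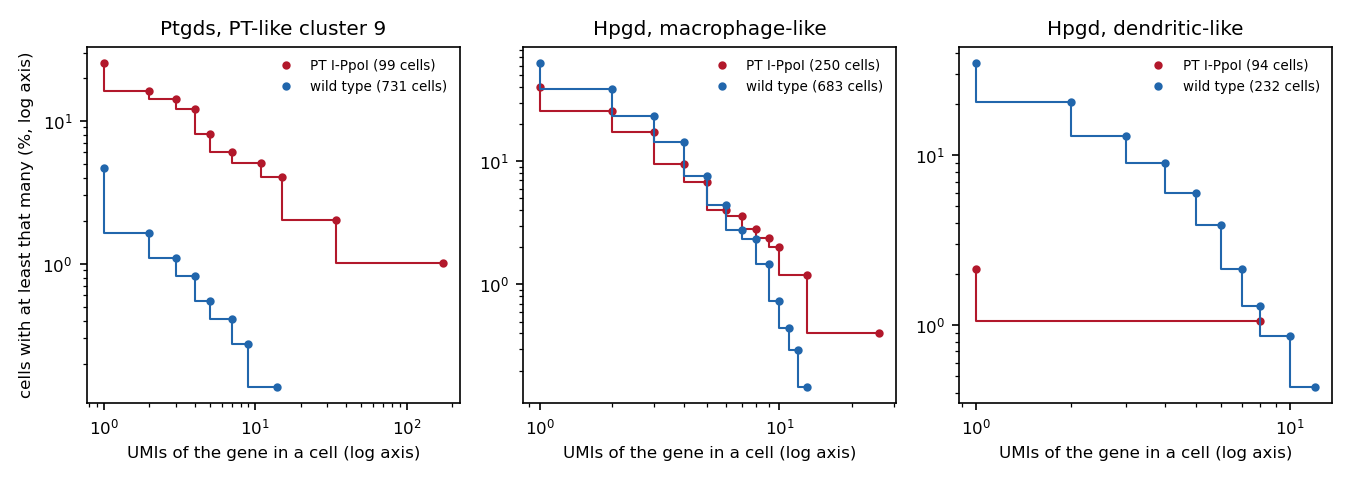
Share of cells (y axis, percent, log scale) with at least a given number of UMIs of a gene (x axis, log scale), for Ptgds in PT-like cluster 9 and Hpgd in macrophage-like and dendritic-like cells, in PT I-PpoI (red) and wild type (blue). The Ptgds curve of PT I-PpoI reaches 173 UMIs and that of wild type 14. The Hpgd curve of dendritic-like cells in PT I-PpoI rests on 2 cells.

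Ptgis (ENSMUSG00000017969, chr2:167191805-167240604, minus strand) encodes prostacyclin synthase, a vascular and smooth muscle enzyme. It was highest in mural-like cells, which include smooth muscle and renin cells, at 119 CPM (99.4 to 142) and 169.8 CPM (141 to 203), in 36 of 132 and 44 of 166 cells (log2 -0.51, -0.88 to -0.14). Fibroblast-like cells had 9 UMIs in each library (33.1 and 82.9 CPM). Parietal-like cells followed at 27.2 and 34.2 CPM (log2 -0.34, -1.02 to 0.38), and endothelial-like cells had 1.38 and 1.59 CPM.

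Hpgd (ENSMUSG00000031613, chr8:56294585-56321043, plus strand) encodes 15-hydroxyprostaglandin dehydrogenase, which starts the breakdown of prostaglandins. Its highest level was in a cluster of 80 and 149 cells led by Slc14a1, a urea transporter gene, with Aqp1 among its leading genes. By its markers it was closest to endothelium, with 12 of 12 endothelial markers read in each library at a summed 8007 and 6612 CPM. Thin limb markers summed to 13303 and 10134 CPM there (6 and 4 of 9 read), and the cluster was given no name, since more of its leading genes were markers of a class other than endothelium. It had 813 CPM (759 to 871) and 794 CPM (728 to 866), a log2 ratio of 0.03, and the libraries overlapped. Wild-type macrophage-like cells had 527 CPM, and wild-type dendritic-like cells 225 CPM. A small cycling class of 21 and 18 cells, too few to be among the classes compared, had 73.5 and 303 CPM. Its 24 and 40 UMIs lay in 4 and 11 cells (log2 -2.03, -2.84 to -1.28). Fibroblast-like cells had 180.2 and 92.2 CPM with 49 and 10 UMIs.

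In macrophage-like cells Hpgd stood at 219.7 CPM (196 to 246) and 527 CPM (496 to 559), a log2 ratio of -1.26 (-1.45 to -1.08), and this was the other result the set was chosen by. In that class 4.45% of 8590 genes were higher and 4.26% were lower by 2-fold or more. After thinning, 24.9% (19.6 to 30.8) and 53.1% (49 to 57.2) of cells had a Hpgd UMI (40.4% and 62.7% unthinned), while 0 of 137 and 1 of 421 Gzma-led cells had one unthinned, the first allowing a share of up to 2.19%. Many cells carried the difference, since the 5 richest held 23.4% and 5.16% of the UMIs. The 11 macrophage markers summed to 26766 and 23816 CPM, with 11 of 11 read in each library.

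Dendritic-like cells showed the widest gap of the breakdown gene. They numbered 94 and 232, and Cd209a, Clec10a and Clec9a led their cluster together with Ear2 and Adgre4, genes also read in monocytes. Conventional dendritic cell markers summed in this class to 1473 and 1363 CPM (8 of 8 read in each library). Macrophage markers summed to 5653 and 3969 CPM (11 of 11) and monocyte markers to 2301 and 1617 CPM (9 of 10), so the name of the class is tentative. Hpgd had 9 and 217 UMIs there, or 10.5 CPM (4.82 to 20.01) and 225 CPM (196 to 257), a log2 ratio of -4.34 (-5.57 to -3.47). In that class 5.72% of 6680 genes were higher and 2.89% were lower by 2-fold or more. In PT I-PpoI 2 of 94 cells had a UMI (2.13%, 0.259 to 7.48), with 8 of the 9 UMIs in 1 of them, against 81 of 232 (34.9%, 28.8 to 41.4) in wild type. Thinned shares were 1.2% and 31.1%. At the finer resolution this class formed 2 clusters. The Cd209a-led cluster had 0 UMIs in 28 cells and 161 UMIs in 53 of 80 cells (66.2%, 54.8 to 76.4), at least 31.2-fold lower against the floor of 3 counts in a library. Its thinned shares were 0% and 48.7%. By the limit of 3 counts, 0 of 28 cells allows a share of up to 10.7%. The cluster led by Siglech and Clec9a had 9 UMIs in 2 of 67 cells and 57 UMIs in 29 of 153 cells (log2 -2.78, -4.05 to -1.82). In the Cd209a-led cluster the 8 conventional dendritic cell markers summed to 1148 and 957 CPM (6 and 7 of 8 read), and the 11 macrophage markers to 1407 and 2084 CPM (11 and 10 of 11 read). In the Siglech-led cluster these sums were 1607 and 1692 CPM (8 of 8 read in each library) and 7418.5 and 5503 CPM (10 and 11 of 11 read). The part of these markers in the difference was not tested. Median depths in the Cd209a-led cluster were 8900 and 5506 UMIs.

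In principal-like, intercalated-like and CNT-like cells Hpgd was higher in PT I-PpoI. Principal-like cells had 69.3 CPM (63.98 to 75.04) and 38.4 CPM (29.9 to 48.6), a log2 ratio of 0.84 (0.49 to 1.23). Their cluster led by Mcoln3 and with Scnn1b had 99.1 and 66.6 CPM, and their cluster led by Aqp4 had 11.8 and 9.08 CPM. Intercalated-like cells had 38.05 and 17.7 CPM (log2 1.09, 0.71 to 1.51). The level was higher in PT I-PpoI in each of their 3 finer clusters, at 47.6 and 16.1 CPM in the Slc26a4-led cluster, 35.1 and 18.7 CPM in the Hmx2-led cluster and 25.6 and 15.2 CPM in the Slc4a1-led cluster, where the interval of the ratio includes 0 (0.68, -0.34 to 2.04). CNT-like cells had 22.4 and 10.2 CPM (55 and 10 UMIs, log2 1.08, 0.15 to 2.28). Parietal-like cells went the other way, at 18.5 and 35.4 CPM (log2 -0.93, -1.69 to -0.17). Endothelial-like cells had 5.69 and 1.99 CPM (log2 1.46), and within their Calca-led cluster 6.07 and 3.90 CPM (log2 0.50, -0.93 to 2.64). With libraries clustered separately the ratio in endothelial-like cells was -3.92, but the classes were then unlike: a Slc14a1-led cluster of 375 cells was named endothelial in wild type, whereas the Slc14a1-led cluster of PT I-PpoI, 74 cells with Hpgd among its leading genes, was unnamed and left out.

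Slco2a1 (ENSMUSG00000032548, chr9:102988712-103096002, plus strand) encodes the prostaglandin transporter, which takes prostaglandins into cells ahead of their oxidation. It was high in podocyte-like cells, at 158 and 200.5 CPM over 45 and 18 cells, in mural-like cells at 140.1 CPM (118 to 165) and 98.5 CPM (76.6 to 125), and in thin limb-like cells at 93.3 and 66.9 CPM (log2 0.47, 0.02 to 0.96). Endothelial-like cells had 158 and 61.6 CPM (log2 1.36, 1.17 to 1.55). In that class 6.22% of 11733 genes were higher and 4.53% were lower by 2-fold or more. There 6 of the 8 members with 20 or more UMIs were higher. The Calca-led cluster (241 and 254 cells) and the Cytl1-led cluster took larger shares of the class in PT I-PpoI, and their part in that count was not tested beyond the values by cluster. The Cytl1-led cluster had 601 CPM (552 to 653) and 541 CPM (447 to 648), a log2 ratio of 0.15 (-0.14 to 0.45) and the highest level of this gene, in 56 and 30 cells. The Calca-led cluster had 108 CPM (97.2 to 119) and 107 CPM (88.2 to 129), a log2 ratio of 0.00 (-0.30 to 0.33). The Btnl9-led cluster had 29.6 and 11.8 CPM (log2 1.32, 0.68 to 1.98, 49 and 37 UMIs in 13 and 28 cells), and the Sema3d-led cluster 97.7 and 69.98 CPM. Within the Calca-led cluster 1 of these 6 members, Ptgds with 15 and 0 UMIs in 4 and 0 cells, was 2-fold or more higher. In the Cytl1-led cluster 2 were, Hpgd with 14 and 1 UMIs and Ptger1 with 11 and 0 UMIs, while Ptgs2 had 5 and 1 UMIs (log2 -0.23, -2.94 to 5.78).

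**Figure D3:**
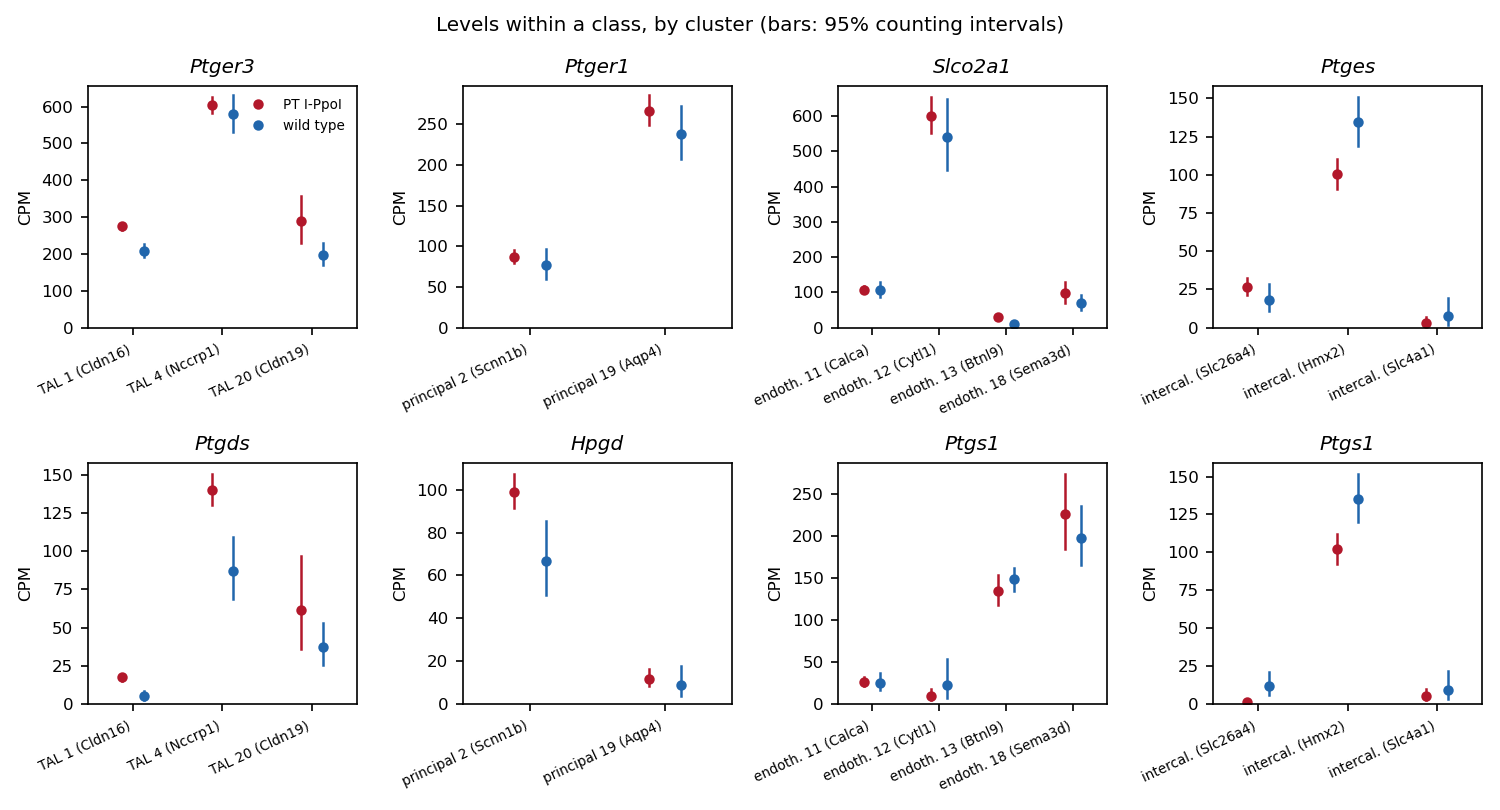
Levels in CPM (points, with 95% counting intervals as bars) of 7 genes in the clusters that make up a class, in PT I-PpoI (red) and wild type (blue). Intercalated-like cells are shown at the finer resolution. Clusters of a class differ widely for some genes, such as Slco2a1 in endothelial-like cells (601 and 541 CPM in cluster 12, 29.6 and 11.8 CPM in cluster 13).

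Ptger1 (ENSMUSG00000019464, chr8:83666678-83672753, plus strand) encodes EP1, a receptor of prostaglandin E2 that signals through calcium. It was highest in principal-like cells, at 148 CPM (140.5 to 157) and 156 CPM (138 to 175), a log2 ratio of -0.07 (-0.26 to 0.12). The cluster led by Aqp4, a water channel gene, had 267 CPM (249 to 286) and 238 CPM (207 to 273), and the Mcoln3-led cluster 87.02 and 76.4 CPM. Ptger1 was itself among the leading genes of the Aqp4-led cluster, so its level there describes the cluster. CNT-like cells had 37.1 and 29.5 CPM (log2 0.31, -0.29 to 0.99). Intercalated-like cells were lower in PT I-PpoI, at 8.70 and 25.3 CPM (log2 -1.54, -1.99 to -1.09). The Hmx2-led cluster, the one with the highest sums of principal cell and CNT markers, had 78 and 93 UMIs (19.6 and 43.5 CPM). The Slc26a4-led cluster had 3 and 0 and the Slc4a1-led cluster 2 and 0. TAL-like cells had 24 single UMIs in 24 of 1423 cells and 0 in 952, at least 1.82-fold higher against the floor of 3 counts in a library, beside 0.887 and 0.239 CPM reckoned from free RNA and 1.28 CPM measured. Endothelial-like cells had 30 and 5 UMIs.

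Ptger3 (ENSMUSG00000040016, chr3:157566892-157645888, plus strand) encodes EP3, the receptor that lowers cyclic AMP and is known in the thick ascending limb for restraining salt uptake. TAL-like cells had 365 CPM (356 to 374) and 281 CPM (266 to 298), a log2 ratio of 0.37 (0.29 to 0.46). The cluster led by Kcnt1 and Nccrp1, which has Ptger3 itself among its leading genes, had 603 CPM (582 to 625) and 579.6 CPM (529.8 to 633), a log2 ratio of 0.06 (-0.08 to 0.20). The Cldn16 and Umod cluster had 275 CPM (266 to 284) and 208 CPM (191 to 227), a log2 ratio of 0.40 (0.27 to 0.53), and the shallow Eprn-led cluster 289 CPM (231 to 358) and 198 CPM (169 to 231). The Kcnt1-led cluster made up 351 of 1423 and 126 of 952 TAL-like cells. Intercalated-like cells followed at 70.1 and 47.8 CPM (log2 0.55, 0.31 to 0.80), with 96.8 and 70.5 CPM in the Slc26a4-led cluster and 78.4 and 79.8 CPM in the Slc4a1-led cluster. DCT-like cells had 17 and 23.7 CPM. In mural-like and principal-like cells the higher level sat beside free RNA of this gene. Mural-like cells had 36.9 and 8.56 CPM (39 and 6 UMIs, log2 2.01), where free RNA was reckoned at up to 16.1 and 1.19 CPM and thick ascending limb markers summed to 3634 and 434 CPM (9 of 9 read in each library). Principal-like cells had 11.3 and 2.23 CPM (101 and 4 UMIs, log2 2.19), where it was reckoned at up to 6.18 and 3.23 CPM, and 17 of the 101 UMIs lay in 1 cell.

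Ptger4 (ENSMUSG00000039942, chr15:5206661-5244187, minus strand) encodes EP4, the receptor that raises cyclic AMP and is known on immune cells. It was read in dendritic-like cells at 103 CPM (82.7 to 127) and 56.05 CPM (42.1 to 73.1), in Gzma-led cells at 94.8 CPM (72.8 to 121) and 57.97 CPM (44.6 to 74.02), and in macrophage-like cells at 73.5 CPM (59.96 to 89.1) and 68.9 CPM (58.1 to 81.2). The log2 ratios were 0.87 (0.37 to 1.40), 0.71 (0.18 to 1.23) and 0.09 (-0.29 to 0.47). The intervals of these 3 classes overlap within each library, so their order is not separated by counting error. Thinned shares were 22.9% and 13.5% of dendritic-like cells and 16.9% and 11.3% of Gzma-led cells, against 0.205% and 0% of DCT-like cells (unthinned 0 of 318 of wild type, which allows up to 0.943%). In the Cd209a-led cluster, where no PT I-PpoI cell had a Hpgd UMI, 17 of 28 and 22 of 80 cells carried a Ptger4 UMI. Parietal-like cells had 38.2 and 33.1 CPM. Endothelial-like cells had 14.1 and 3.79 CPM (92 and 19 UMIs, log2 1.87, 1.18 to 2.70), and their Cytl1-led cluster 42.99 and 32.4 CPM (log2 0.33, -0.76 to 1.81). Ptger4 shares 11676 bases with Ttc33 on the opposite strand, and whether the counting used strand is not given in the sources used here, so reads of the pair could not be told apart without it.

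**Figure D4:**
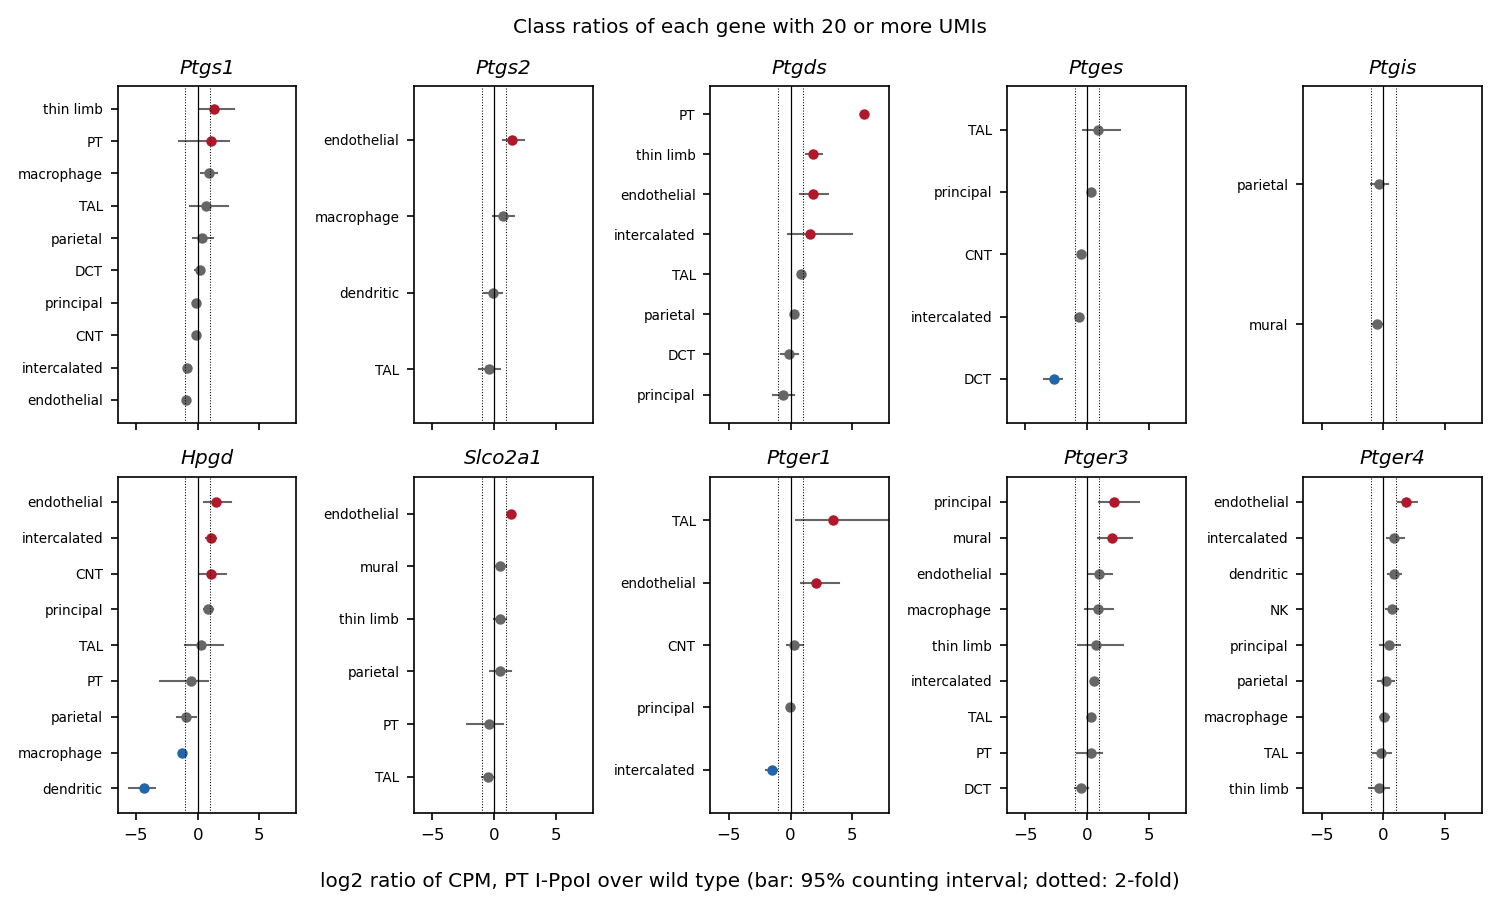
Log2 ratio of CPM, PT I-PpoI over wild type (x axis), of each gene in each class where it had 20 or more UMIs (67 points), with 95% counting intervals as bars and dotted lines at 2-fold. Red points are 2-fold or more higher (16), blue points 2-fold or more lower (4). Ptgds in PT-like cells (5.98) and Hpgd in dendritic-like cells (-4.34) lie furthest out.

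In thin limb-like cells 2 members, Ptgds and Ptgs1, were higher of 5 with 20 or more UMIs, where 3.99% of 9162 genes were higher and 2.37% were lower. Their UMIs sat in few cells, with 46 of 194 and 8 of 38 in the richest one. Thinned shares for Ptgds were 9.46% (3.89 to 18.5) and 4.69% (0.977 to 13.1), and for Ptgs1 5.41% (1.49 to 13.3) and 3.12% (0.381 to 10.8), with intervals that overlap. With libraries clustered separately the ratios were -0.55 for Ptgds and -0.24 for Ptgs1, but the thin limb class of wild type was then 1 cluster of 190 cells led by Pcp4, with Msmp and Ms4a2 as in the parietal cluster, and wild type had no parietal class.

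Other genes of prostanoid metabolism were read from a list of 44, of which 43 were in the matrices. Of these, 23 reached 50 CPM in a class as the mean of both libraries, and highest classes named below are by that mean. The 43 genes gave 264 pairs with 20 or more UMIs. Of these pairs 12 were higher and 16 lower by 2-fold or more, where 4.76% and 3.68% of the pairs of all genes were. Among the phospholipases that release arachidonic acid, Pla2g16 was highest in Gzma-led cells (193 and 148 CPM), Pla2g4a in urothelial-like cells (42.8 and 68.2 CPM) and Pla2g12a in DCT-like cells (49.8 and 52.5 CPM). In PT I-PpoI, endothelial-like cells had more Pla2g4a (64.6 CPM) than urothelial-like cells. Among the terminal synthases, Hpgds, the haematopoietic prostaglandin D synthase, was highest in macrophage-like cells (109 and 122 CPM), as was Tbxas1, thromboxane synthase (67 and 48.1 CPM). Akr1b3 was highest in urothelial-like cells (1971 and 652 CPM), Cbr1 in principal-like cells (126 and 107 CPM) and Ptges3 in endothelial-like cells (262 and 216 CPM). The prostaglandin reductase Ptgr2 was highest in PT-like cells (82.7 and 87.4 CPM), Ptgr1 in urothelial-like cells (100.3 and 45.5 CPM) and Cbr3 in fibroblast-like cells (69.9 and 36.9 CPM). Of the receptors, Ptgfr for prostaglandin F2 alpha was highest in DCT-like cells (302 and 210.5 CPM), Tbxa2r for thromboxane in endothelial-like cells (103 and 180.3 CPM) and the nuclear receptor gene Pparg in urothelial-like cells (100.3 and 53.1 CPM). Of the carriers, Slc22a8 was highest in PT-like cells, Slco3a1 in mural-like cells (107 and 121 CPM) and Slco2b1 in fibroblast-like cells (151 and 82.9 CPM). In the leukotriene branch, Alox5ap and Alox5 were highest in neutrophil-like cells (1277 and 825 CPM, and 84.4 and 60.4 CPM), and Ltc4s in DCT-like cells (84.3 and 118 CPM). Ltb4r1, a leukotriene B4 receptor, was highest in dendritic-like cells, and Lta4h (33.7 and 83.3 CPM) and Cysltr1 (95 and 83.3 CPM) in a small cycling class of 21 and 18 cells. In PT I-PpoI Gzma-led cells had more Lta4h (46.65 CPM) than the cycling class. In wild type dendritic-like cells had more Cysltr1 (88.2 CPM) than the cycling class.

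In PT-like cells 6 of 27 genes of that list with 20 or more UMIs were higher and 4 lower, beside 13.7% and 4.76% of all genes in the class. The furthest were Hpgds (16.3 and 2.29 CPM, 33 and 76 UMIs, log2 2.85, 2.20 to 3.44), Ptgfr (5.45 and 0.812 CPM, log2 2.78), Akr1c18 (2.48 and 9.38 CPM, log2 -1.79) and Slc22a22 (8.42 and 28.5 CPM, log2 -1.72). Slc22a8, an organic anion carrier of the proximal tubule, had 99.04 and 316 CPM there and was lower by 2-fold or more in other classes too. In endothelial-like cells it had 0 and 132 UMIs, and the 16 proximal tubule markers summed there to 104 and 1130.5 CPM (15 and 16 of 16 read). Their part in that difference was not tested. Endothelial-like cells had higher Alox5ap, the 5-lipoxygenase activating protein (22.3 and 4.98 CPM, log2 2.14, 1.54 to 2.84), and Alox12 (62.7 and 29.1 CPM, log2 1.11, 0.83 to 1.39). In principal-like cells Ltc4s, leukotriene C4 synthase, had 156 and 4 UMIs (log2 2.81), and the carrier Slco4a1 26.4 and 56.8 CPM (log2 -1.11). Intercalated-like cells had Slco3a1 at 15.3 and 43.3 CPM (log2 -1.50). In macrophage-like cells Pla2g16 (47.1 and 21.8 CPM, log2 1.10) and Lta4h (log2 1.00, 37 and 27 UMIs) were higher. In DCT-like cells Fam213b had 29 and 12 UMIs (log2 -1.26) and Pla2g6 41 and 3 (log2 1.07, -0.37 to 3.61). In dendritic-like cells Ltb4r1 had 42.2 and 99.6 CPM (36 and 96 UMIs, log2 -1.23, -1.84 to -0.67).

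The genes whose levels over the 26 profiles were most like each member were named by Pearson's r, again as a description over profiles that share libraries. Ptges was nearest to Scnn1b (0.96), Scnn1g and Hsd11b2, and Ptger1 to Aqp2 (0.95), Mcoln3 and Aqp3. Ptger3 was nearest to Adcy1 (0.86) and Slc12a1, and Ptgis to Lamc3 (0.96), Gpc6 and Fxyd1. For Slco2a1 they were Msrb3 (0.91), Map1b and Fbxl7, for Ptger4 Fam111a (0.90), Eif3f and Plekhj1, and for Ptgs1 Phactr1 (0.89), Atp2b2 and Tubb2a. Hpgd was nearest to Csf2ra (0.83), P2rx4 and Cebpa, and Ptgds to Prr15 (0.85), Aoc1 and Ybx1. Ptgs2 stayed under 50 CPM in the classes compared and got no such list.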

How the data were processed

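The authors deposited raw UMI counts per gene and barcode, unfiltered, as 1 matrix per library. The chemistry was 10x 3′ v3.1, per the labels' protocols. Counting used mm10 with Cell Ranger 3.1 and later steps Seurat 3, per the submitters' processing notes, whereas the matrices name Cell Ranger 4, per the file headers. No reads were processed here.

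Cells were called by depth and by a Monte Carlo test against the ambient profile (10000 simulations, rate 0.01, at least 500 UMIs). Barcodes with under 200 genes or over 50% mitochondrial UMIs were left out, and Scrublet removed 72 and 285 doublets. Cells were clustered jointly in scanpy 1.11.5 (2000 variable genes, 30 components, 15 neighbours found from rounded component scores so that the graph does not vary between computers, Leiden resolution 1, and 2 for finer clusters, seed 7) and named from marker lists, with at least 3 detected markers. Names are rebuilt here and may differ from the study's own.

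UMIs were summed per class and library. For ratios 0.5 was added to each count, and 95% intervals were conditional binomial for ratios, Poisson for levels and Clopper-Pearson for shares. All treat UMIs as independent, which understates the error where single cells are rich in a gene. Free RNA was reckoned from tubule markers read in classes that should lack them, as an upper estimate. For shares, cells were thinned to 2000 UMIs. The code was tested on simulated data. The design gave 1 library per group, so no test between groups was run. Gene spans and overlaps came from GENCODE M21, and sequences from RefSeq (GRCm38.p6).

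The members, marker lists and the list of other pathway genes were chosen with earlier results of these data known. All members are named. Other pathway genes are named where they had 20 or more UMIs and a log2 ratio of 1 or more in size, at most 4 per class, and in their highest class from 50 CPM; genes of like pattern are the top 3, of which 1 is not reported here. Without strand, reads of genes that overlap on opposite strands cannot be told apart. The alternatives were TMM factors (edgeR 4.0.16, no edgeR test), 2 free RNA profiles, a mitochondrial limit of 30%, at least 1000 UMIs per cell, a mean over cells, separate clustering, resolution 2, other Leiden seeds and other UMI minimums.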

Additional observations from a re-analysis of the deposited data

Results flagged for a closer look

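Hpgd differed in direction between classes under the same contrast. The log2 ratio was 1.08 in CNT-like, 1.09 in intercalated-like and 1.46 in endothelial-like cells, and -4.34 in dendritic-like and -1.26 in macrophage-like cells, each with a counting interval that leaves out 0. With libraries clustered separately the endothelial-like value was -3.92, over classes that held unlike clusters. Ptger1 was also split, at 2.10 in endothelial-like cells (30 and 5 UMIs) and -1.54 in intercalated-like cells. With 1 library per group, the difference between classes was not tested.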

How the results depend on the processing

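No paired analysis was possible because each group has 1 library. Of 67 ratios, between 35 of 56 with a value (libraries clustered separately) and all 67 (at least 1000 UMIs per cell, and Leiden seed 9) stayed inside their counting interval when the whole class was processed in another way. With libraries clustered separately, CNT-like, Gzma-led and parietal-like cells gave no value. The Ptgds ratio of PT-like cells was 5.62 with TMM factors, 6.39 at a mitochondrial limit of 30%, 4.99 as a mean over cells and 6.36 with libraries clustered separately. The Hpgd ratio of dendritic-like cells was -3.46 with separate clustering, but the classes were then unlike. In wild type the class was a cluster of 189 cells led by Cd209a. In PT I-PpoI it was a Siglech-led cluster of 68 cells, and a Cd209a-led cluster of 25 cells was unnamed and left out. Settings chosen after seeing the data were Leiden seeds 8 and 9, single clusters, and a class without the 5 cells richest in a gene. They gave Ptgds in PT-like cells 4.37 without the 5 richest cells and 4.53 in cluster 9 alone. They gave Hpgd in dendritic-like cells -3.05 with Leiden seed 8, -8.26 without the 5 richest cells, and -2.78 and -7.55 in finer clusters 19 and 28. With 0 UMIs left in PT I-PpoI, -8.26 and -7.55 are set by the added 0.5 and give no size. Hpgd in macrophage-like cells was -1.53 without the 5 richest. Directions reversed for Ptgs1 in PT-like cells (-0.46 after subtraction of free RNA by ambient ranks, -1.21 without the 5 richest cells), Ptgds in intercalated-like cells (-1.55 and -1.59 after subtraction by either profile) and Ptgs2 in endothelial-like cells (-0.23 in cluster 12 alone). The values of the first 2 pairs had 0 UMIs left in PT I-PpoI, for Ptgds in wild type too. They are set by the added 0.5 and give no direction. With libraries clustered separately, directions reversed for Ptgds (-0.10) and Hpgd (-3.92) in endothelial-like and Ptgds (-0.55) and Ptgs1 (-0.24) in thin limb-like cells. There the classes held unlike clusters, as described above. The cause was not tested. Counts of member pairs past 2-fold were 41 higher and 11 lower with no minimum of UMIs, and 13 and 9 lower after free RNA was subtracted by ambient ranks and by barcodes of 100 or fewer UMIs. Leiden seeds 8 and 9 gave 16 and 17 higher, and 4 lower each. Other pathway genes gave 5 higher pairs with TMM factors, 21 higher and 29 lower at 10 UMIs, and 47 and 87 with no minimum. With separate clustering 6 of 10 members had the same highest class, and Ptges and Ptgds could not, since their classes gave no value. TMM factors shifted all ratios by -0.36 in PT-like cells, -0.18 in endothelial-like, -0.16 in macrophage-like, -0.15 in dendritic-like, -0.11 in Gzma-led and 0.12 in intercalated-like cells, and by under 0.1 in the other classes.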
